A study of Mus musculus with 12 samples.

Results

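The 40 genes described here are the immediate early and activity-induced genes of the adrenal gland, measured in 4 groups of adult male C57Bl/6J mice on 12 Affymetrix Mouse Gene 1.0 ST arrays. They were taken by gene symbol, at the probe set with the highest mean signal among those listed with that symbol alone. All 40 were found, each with 1 such probe set, among 16244 genes, and all 40 were among the 15900 genes tested after a filter on dim signals. ASP+CGP mice received aspartame and the developmental NMDA receptor antagonist CGP 39551. ASP mice received aspartame alone, CGP mice the antagonist alone, and CON mice neither. Aspartame (46 mg/kg body weight) was given in the drinking water from before birth, through the dam, until the tissue was taken. CGP 39551 (5 mg/kg), a competitive antagonist of the NMDA type of glutamate receptor, was given in the same way but ended at postnatal day 28. All mice were 21 weeks old when the adrenals were snap-frozen, so the antagonist had been withdrawn long before. RNA was pooled within each group in equal amounts, and each pool was applied to 3 arrays. The arrays are therefore technical replicates of 1 pool per group, every p-value measures the spread between arrays and not between mice, and differences between pools cannot be told apart from differences between the mice or dissections that entered them.

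Immediate early genes are transcribed within minutes of a stimulus without need for new protein, because the factors that drive them, such as SRF and CREB, already sit at their promoters and are phosphorylated by MAP kinases and protein kinase A. Most encode short-lived transcription factors, and others encode phosphatases and RNA-binding proteins that shut the response off. In the adrenal cortex they respond to ACTH through cAMP, in chromaffin cells to acetylcholine from the splanchnic nerve, and in most tissues also to handling, stress and dissection.

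The pools differed in more than these genes. Arrays of the same pool correlated at 0.989 to 0.995 over all probe sets, whereas ASP arrays correlated with CON arrays at 0.926 to 0.934, ASP+CGP with CON arrays at 0.960 to 0.978 and CGP with CON arrays at 0.990 to 0.993. The spread of signals within an array was narrower in the ASP+CGP pool, with an interquartile range of 2.20 to 2.29 against 2.52 to 2.69 on all other arrays. Markers of adrenal cortex were bright in all pools, with a mean log2 signal of 12.66 to 12.71 in ASP+CGP, 12.52 to 12.57 in ASP, 12.74 to 12.79 in CGP and 12.82 to 12.83 in CON. The ASP pool also carried brain markers. The mean log2 signal of 14 neuron markers was 10.11 to 10.24 in ASP, against 7.48 to 7.52 in ASP+CGP, 7.40 to 7.47 in CGP and 7.36 to 7.45 in CON. Of these 14 markers, 0 stayed under 6 on all ASP arrays, against 3 in ASP+CGP, 4 in CGP and 4 in CON. Liver markers differed between the pools, and 17 of them averaged 9.17 to 9.27 in ASP+CGP, 9.66 to 9.72 in ASP, 11.30 to 11.41 in CGP and 10.62 to 10.68 in CON. Fewer cells of a type and less RNA per cell cannot be told apart in bulk tissue.

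Many of the 40 genes were lower in both aspartame pools on the deposited scale. A gene is called where limma's adjusted p was under 0.05 and the difference at least 1.4-fold. Against CON, 20 of the 40 were called lower in ASP and 0 higher, where 8.13% of all 15900 genes were called lower and 9.81% higher. The median log2 difference of the 40 was -0.47, against -0.10 for all genes. In ASP+CGP against CON 13 were called lower and 0 higher (8.32% and 6.09% of all genes), with a median of -0.38 against -0.17. These values depended on the scaling of the arrays: with cyclic loess 6 were called lower, the median was -0.12 against 0.01 for all genes, and 26 differences were negative and 14 positive, against 36 and 4 as deposited. The comparison of ASP+CGP with CGP gave 22 called lower and 0 higher (11.0% and 8.57% of all genes), with a median of -0.58 against -0.18. CGP alone went the other way by a small amount: 1 member was called higher and 0 lower (1.62% and 0.0189% of all genes), with a median of 0.16 against 0.00. The comparisons with CON share its 3 arrays and are set side by side, not counted as separate evidence.

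**Figure D1:**
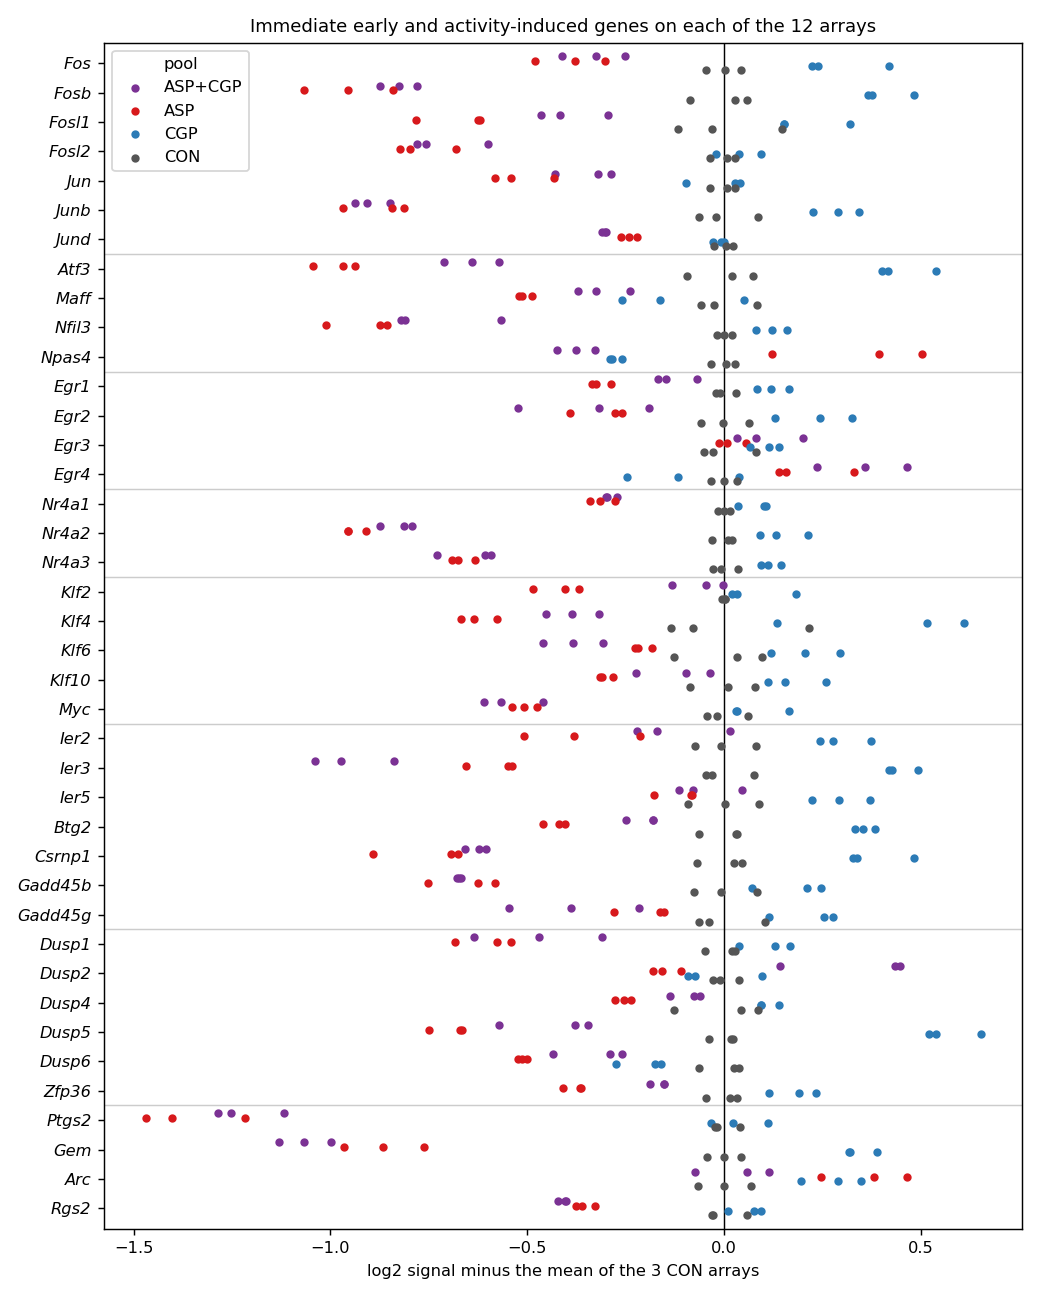
Log2 signal of each of the 40 members on each array, as the difference from the mean of the 3 CON arrays (x axis), with members on the y axis grouped by family and 1 point per array. For most members the ASP+CGP and ASP points lie left of the CON points and the CGP points at or right of them, with Npas4, Egr3, Egr4, Dusp2, Arc, Dusp6 and Maff among the exceptions.

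The order of the groups was much the same from gene to gene. The group mean was highest in CGP for 32 of the 40, against 31.3% of all genes, and lowest in ASP for 26 and in ASP+CGP for 11, against 33% and 42.8% of all genes. All 3 ASP arrays were below all 3 CON arrays for 35 members (43.0% of all genes), and all 3 ASP+CGP arrays were below all 3 CON arrays for 31 members (52.5% of all genes). ASP+CGP arrays were below CGP arrays without overlap for 35 (52.2% of all genes). CGP arrays were above CON arrays without overlap for 26 members (10.1% of all genes).

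**Figure D2:**
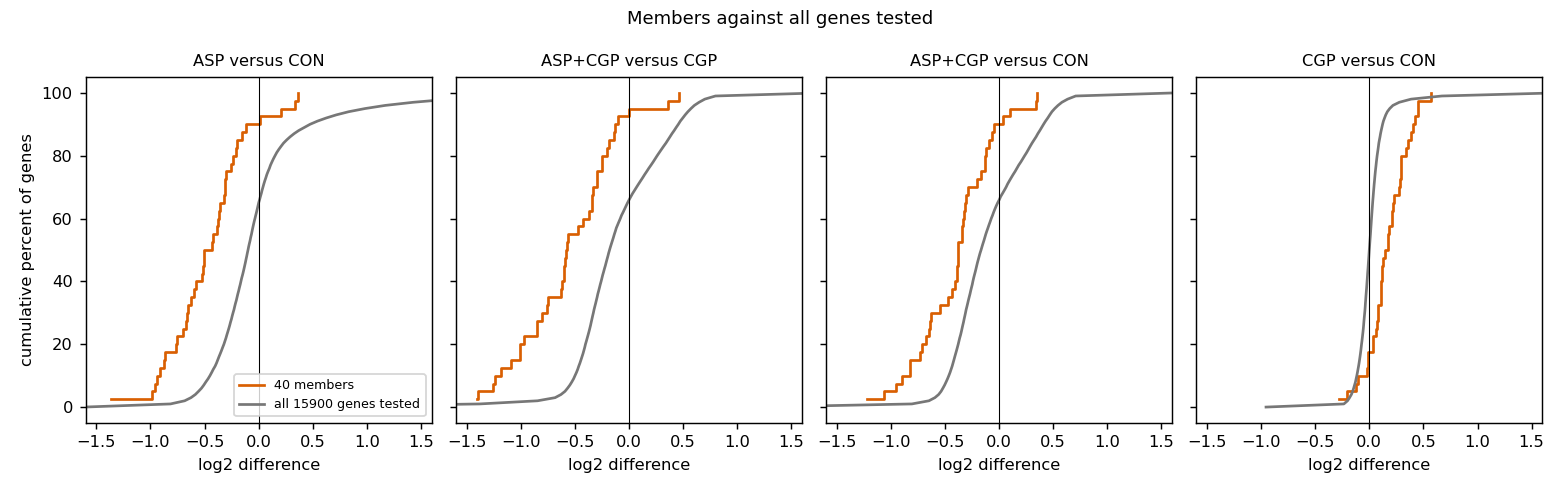
Cumulative percent of genes (y axis) by log2 difference (x axis) in 4 comparisons, for the 40 members and for all 15900 genes tested. The member line lies left of the line for all genes in the 3 comparisons with an aspartame pool on top (medians -0.47, -0.58 and -0.38) and right of it in CGP against CON (median 0.16).

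RefSeq promoter windows (GRCm38.p6, 250 bases before to 50 after the start) were at hand for 31 of the 40 members. The core site of the cAMP response element bound by CREB, TGACG on either strand, was found in the windows of 21 of the 31 (67.7%), against 23.0% of 27025 genes. The full element, TGACGTCA, was in 3 (9.68% against 2.03%), and every match to it also holds the core site on both strands. The CArG box, which SRF binds, was in 3 (9.68% against 1.81%), and the AP-1 site, TGANTCA, in 1 (3.23% against 8.97%). Among the 17 members called lower in ASP that have a window, 12 held the core site, and of the 14 others 9 did. Such matches are letters in a window and not shown to be sites in use. Stretches upstream of the start are shown for 6 members called lower in ASP, to show where the matched letters lie. Each is written 5′ to 3′ on the strand of its gene with the matches in capitals, where CGTCA is the core site on the other strand.
Nr4a2, chr2:57124100-57124213, minus strand: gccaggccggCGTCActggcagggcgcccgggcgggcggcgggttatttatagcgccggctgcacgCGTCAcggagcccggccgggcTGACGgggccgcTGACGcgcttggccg
Nr4a3, chr4:48045064-48045172, plus strand: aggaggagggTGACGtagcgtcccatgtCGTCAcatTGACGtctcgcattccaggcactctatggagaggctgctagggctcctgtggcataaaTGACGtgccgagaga
Fosb, chr7:19310091-19310115, minus strand: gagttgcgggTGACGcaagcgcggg
Junb, chr8:84978840-84978864, minus strand: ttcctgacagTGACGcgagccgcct
Dusp1, chr17:26508598-26508673, minus strand: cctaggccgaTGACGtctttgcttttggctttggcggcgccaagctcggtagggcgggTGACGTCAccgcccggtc
Dusp5, chr19:53529053-53529104, plus strand: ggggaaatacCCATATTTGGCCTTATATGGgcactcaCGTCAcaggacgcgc
Nr4a2 and Nr4a3 each show 4 core sites, Fosb and Junb 1 each. Dusp1 shows the full element (the capitals nearest to its start), and Dusp5 a pair of adjoining CArG boxes followed by 1 core site.

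The Fos and Jun proteins dimerise to form AP-1, the best known output of the immediate early response. Of the 7 genes, 5 were called lower in ASP against CON (Fosb, Fosl1, Fosl2, Jun and Junb), where 8.13% of all genes were. In ASP+CGP against CGP 5 were called lower (Fos, Fosb, Fosl1, Fosl2 and Junb), where 11.0% of all genes were. With cyclic loess these counts were 4 (2.99% of all genes) and 3 (4.6% of all genes). The log2 signal of Fosb was 9.13, 9.18 and 9.22 on the ASP+CGP arrays, 8.94, 9.05 and 9.16 on the ASP arrays, 10.37, 10.49 and 10.38 on the CGP arrays and 9.92, 10.06 and 10.03 on the CON arrays. Neither aspartame pool overlapped CON or CGP, and the CGP arrays were the highest. The log2 difference was -0.95 ± 0.07 (1.94-fold lower, adjusted p = 1.96e-08) in ASP against CON, -0.83 ± 0.07 (1.77-fold lower, adjusted p = 7.44e-07) in ASP+CGP against CON and -1.23 ± 0.07 (2.35-fold lower, adjusted p = 2.96e-09) in ASP+CGP against CGP. Junb, a rapidly induced partner of the Fos proteins, read 9.50, 9.55 and 9.46 on the ASP+CGP arrays, 9.56, 9.59 and 9.43 on the ASP arrays, 10.69, 10.74 and 10.63 on the CGP arrays and 10.38, 10.34 and 10.49 on the CON arrays. As for Fosb, both aspartame pools lay below CON and the CGP arrays lay above it. Its log2 difference was -0.87 ± 0.06 (1.83-fold lower, adjusted p = 2.27e-08) in ASP against CON, -0.90 ± 0.06 (1.86-fold lower, adjusted p = 1.42e-07) in ASP+CGP against CON and -1.18 ± 0.06 (2.27-fold lower, adjusted p = 2.02e-09) in ASP+CGP against CGP.

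Fosl2 (Fra-2), a Fos protein that is more stable than c-Fos, read 10.82, 10.98 and 10.80 on the ASP+CGP arrays, 10.75, 10.78 and 10.90 on the ASP arrays, 11.56, 11.67 and 11.61 on the CGP arrays and 11.54, 11.60 and 11.58 on the CON arrays. Here CGP and CON overlapped, and both aspartame pools lay below both, with log2 differences of -0.77 ± 0.06 (1.7-fold lower, adjusted p = 1.24e-07) in ASP against CON, -0.71 ± 0.06 (1.64-fold lower, adjusted p = 1.84e-06) in ASP+CGP against CON and -0.75 ± 0.06 in ASP+CGP against CGP. Fosl1 (Fra-1), a Fos protein without the transactivation domain of c-Fos, read 7.96, 8.01 and 8.13 on the ASP+CGP arrays, 7.64, 7.80 and 7.81 on the ASP arrays, 8.75, 8.58 and 8.58 on the CGP arrays and 8.40, 8.31 and 8.57 on the CON arrays. The ASP arrays were the lowest, and the log2 difference was -0.68 ± 0.08 in ASP against CON (adjusted p = 5.02e-06) and -0.60 ± 0.08 in ASP+CGP against CGP (adjusted p = 2.26e-05). In ASP+CGP against CON it was -0.39, under 1.4-fold.

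Fos itself, the prototype of the class, read 8.90, 8.98 and 8.82 on the ASP+CGP arrays, 8.75, 8.85 and 8.93 on the ASP arrays, 9.45, 9.65 and 9.47 on the CGP arrays and 9.18, 9.27 and 9.23 on the CON arrays. Its aspartame pools overlapped each other and stood below CON, while CGP stood above it. Against CON its log2 difference was -0.39 ± 0.07 in ASP and -0.33 ± 0.07 in ASP+CGP, both under 1.4-fold, and it was called in ASP+CGP against CGP alone (-0.62 ± 0.07, adjusted p = 6.74e-06). Jun, the main partner of Fos, read 10.88, 10.91 and 10.77 on the ASP+CGP arrays, 10.61, 10.76 and 10.65 on the ASP arrays, 11.22, 11.24 and 11.10 on the CGP arrays and 11.16, 11.22 and 11.20 on the CON arrays. It was called in ASP against CON (-0.52 ± 0.06, adjusted p = 6.64e-06), and its CGP and CON arrays overlapped. Jund, the Jun gene that is expressed without a stimulus, was called in none of the comparisons, with log2 differences of -0.24 in ASP against CON and -0.29 in ASP+CGP against CGP.

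Of the other leucine zipper factors, Atf3 and Nfil3 were among the most changed members. Atf3, a stress-induced repressor of the CREB family, read 8.14, 8.21 and 8.28 on the ASP+CGP arrays, 7.91, 7.88 and 7.80 on the ASP arrays, 9.26, 9.25 and 9.39 on the CGP arrays and 8.75, 8.87 and 8.92 on the CON arrays. The 4 pools did not overlap and ran, from low to high, ASP, ASP+CGP, CON and CGP. Log2 differences were -0.98 ± 0.06 (1.98-fold lower, adjusted p = 8.22e-09) in ASP against CON, -0.64 ± 0.06 (1.56-fold lower, adjusted p = 5.22e-06) in ASP+CGP against CON and -1.09 ± 0.06 (2.13-fold lower, adjusted p = 7.38e-09) in ASP+CGP against CGP. Its log2 difference in CGP against CON, 0.45 ± 0.06, was 1.37-fold, under the 1.4-fold minimum (adjusted p = 0.000432).

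Nfil3, a repressor known from the circadian clock and from immune cells, read 9.08, 9.33 and 9.07 on the ASP+CGP arrays, 8.88, 9.04 and 9.02 on the ASP arrays, 9.97, 10.05 and 10.01 on the CGP arrays and 9.87, 9.91 and 9.89 on the CON arrays. Both aspartame pools were below both others, with log2 differences of -0.91 ± 0.07 (1.88-fold lower, adjusted p = 5.67e-08) in ASP against CON, -0.73 ± 0.07 (1.66-fold lower, adjusted p = 3.68e-06) in ASP+CGP against CON and -0.85 ± 0.07 (1.81-fold lower, adjusted p = 3.93e-07) in ASP+CGP against CGP. Maff, a small Maf protein with no transactivation domain of its own, read 7.28, 7.19 and 7.15 on the ASP+CGP arrays, 7.03, 7.0 and 7.0 on the ASP arrays, 7.57, 7.26 and 7.35 on the CGP arrays and 7.49, 7.60 and 7.46 on the CON arrays. Only ASP against CON was called for it (-0.51 ± 0.07, adjusted p = 4.3e-05), and without the second CON array the log2 difference of -0.47 fell under 1.4-fold.

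Npas4, a factor of the PAS family that neurons induce on calcium entry, did not share this pattern. It read 6.51, 6.41 and 6.46 on the ASP+CGP arrays, 6.96, 7.23 and 7.34 on the ASP arrays, 6.57, 6.54 and 6.55 on the CGP arrays and 6.84, 6.80 and 6.86 on the CON arrays. The ASP arrays were the highest and the ASP+CGP arrays the lowest. Npas4 was called lower in ASP+CGP against ASP (-0.72 ± 0.08 (1.64-fold lower, adjusted p = 2.63e-06)), the only member so called, where 13.3% of all genes were called lower. Its difference in ASP against CON, 0.34 ± 0.08, did not reach 1.4-fold.

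The Egr zinc finger factors, which the MAP kinase pathway induces through SRF, moved little. Egr2, known in Schwann cells as Krox20, read 7.93, 8.06 and 7.72 on the ASP+CGP arrays, 7.86, 7.99 and 7.97 on the ASP arrays, 8.49, 8.57 and 8.38 on the CGP arrays and 8.31, 8.19 and 8.24 on the CON arrays. It was called lower in ASP+CGP against CGP (-0.58 ± 0.08, adjusted p = 3.56e-05) and in no other comparison. Egr1, the most studied of the family, had log2 differences of -0.32 ± 0.05 in ASP against CON and -0.25 ± 0.05 in ASP+CGP against CGP, both under 1.4-fold. Egr3 had log2 differences of 0.02 ± 0.06 in ASP against CON and 0.11 ± 0.06 in CGP against CON, and all of its pools overlapped CON. Egr4 was measured at 0.46 ± 0.08 in ASP+CGP against CGP and 0.35 ± 0.08 in ASP+CGP against CON, the opposite sign to most members and under 1.4-fold in the deposited scaling. After centring each array on its median Egr4 was called higher in both, at 0.64 and 0.50.

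The Nr4a receptors are orphan nuclear receptors that act without a known hormone, and in adrenal cortex ACTH induces them and they act at promoters of steroidogenic genes. Nr4a2 (Nurr1) read 10.78, 10.70 and 10.76 on the ASP+CGP arrays, 10.62, 10.62 and 10.67 on the ASP arrays, 11.71, 11.79 and 11.67 on the CGP arrays and 11.60, 11.59 and 11.55 on the CON arrays. All 6 aspartame arrays lay below all CON and CGP arrays. The log2 difference was -0.94 ± 0.05 (1.92-fold lower, adjusted p = 1.54e-09) in ASP against CON, -0.83 ± 0.05 (1.77-fold lower, adjusted p = 6.59e-08) in ASP+CGP against CON and -0.97 ± 0.05 (1.96-fold lower, adjusted p = 3.3e-09) in ASP+CGP against CGP. Nr4a3 (Nor-1), the third of the family, read 10.29, 10.30 and 10.17 on the ASP+CGP arrays, 10.20, 10.22 and 10.26 on the ASP arrays, 11.04, 11.01 and 10.99 on the CGP arrays and 10.86, 10.89 and 10.93 on the CON arrays. Its aspartame pools overlapped each other and lay below the others, with log2 differences of -0.67 ± 0.05 (adjusted p = 1.09e-07), -0.64 ± 0.05 (1.56-fold lower, adjusted p = 1.15e-06) and -0.76 ± 0.05 (adjusted p = 8.01e-08) in those 3 comparisons. Nr4a1 (Nur77), with a mean log2 signal of 13.10 in ASP+CGP, 13.08 in ASP, 13.48 in CGP and 13.39 in CON, had log2 differences of -0.31 ± 0.05, -0.29 ± 0.05 and -0.37 ± 0.05, all under 1.4-fold.

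Among the Klf factors and Myc, Klf4 and Myc were called lower in ASP against CON. Klf4, a regulator of differentiation, read 8.71, 8.65 and 8.78 on the ASP+CGP arrays, 8.52, 8.46 and 8.43 on the ASP arrays, 9.71, 9.61 and 9.23 on the CGP arrays and 9.02, 9.31 and 8.96 on the CON arrays. Its CON and CGP arrays were spread widely and overlapped, and the log2 difference was -0.63 ± 0.11 in ASP against CON (adjusted p = 0.000208) and -0.80 ± 0.11 in ASP+CGP against CGP (adjusted p = 2.79e-05). Myc, which drives growth and biosynthesis, read 10.48, 10.38 and 10.33 on the ASP+CGP arrays, 10.43, 10.47 and 10.40 on the ASP arrays, 10.97, 11.11 and 10.97 on the CGP arrays and 10.90, 11.00 and 10.92 on the CON arrays. It was called in ASP against CON (-0.51 ± 0.06), ASP+CGP against CON (-0.54 ± 0.06) and ASP+CGP against CGP (-0.62 ± 0.06), with adjusted p of 6.36e-06, 1.18e-05 and 2.21e-06. Without the second CON array its difference in ASP against CON was -0.48, under 1.4-fold. With cyclic loess the Myc differences in those comparisons were -0.33, -0.25 and -0.32, all under 1.4-fold. After centring each array on its median, Myc was at -0.39 in ASP+CGP against CON and -0.44 in ASP+CGP against CGP, also under 1.4-fold. Klf4 fell under 1.4-fold with cyclic loess, at -0.45 in ASP against CON and -0.47 in ASP+CGP against CGP. Removing the trend with signal level also took away all of these Myc and Klf4 calls.

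Klf6 read 8.47, 8.63 and 8.55 on the ASP+CGP arrays, 8.72, 8.71 and 8.75 on the ASP arrays, 9.14, 9.23 and 9.05 on the CGP arrays and 8.80, 8.97 and 9.03 on the CON arrays. This zinc finger factor was called in ASP+CGP against CGP alone (-0.59 ± 0.07, adjusted p = 9.59e-06). Klf2, which shear stress induces in endothelium, was not called in the deposited scaling, with log2 differences of -0.42 in ASP against CON, -0.06 in ASP+CGP against CON and 0.36 in ASP+CGP against ASP. Klf10, a TGF-beta-induced repressor, had log2 differences of -0.30 in ASP against CON and -0.29 in ASP+CGP against CGP, neither of them called.

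Ier3, Csrnp1, Gadd45b and their like are immediate early proteins that are mostly not DNA-binding factors. Ier3, a stress-induced regulator of survival and ERK signalling, read 7.96, 8.10 and 7.89 on the ASP+CGP arrays, 8.39, 8.39 and 8.28 on the ASP arrays, 9.36, 9.43 and 9.35 on the CGP arrays and 8.89, 9.01 and 8.90 on the CON arrays. Its 4 pools did not overlap and ran, from low to high, ASP+CGP, ASP, CON and CGP. Its log2 difference was -0.58 ± 0.06 in ASP against CON (adjusted p = 2.83e-06), -0.95 ± 0.06 (1.93-fold lower, adjusted p = 9.98e-08) in ASP+CGP against CON and -1.40 ± 0.06 (2.63-fold lower, adjusted p = 3.87e-10) in ASP+CGP against CGP. In CGP against CON it was 0.45 ± 0.06 (1.36-fold, adjusted p = 0.000468), just under the fold minimum.

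Csrnp1, a nuclear protein first found as a target of axin, read 8.88, 8.85 and 8.90 on the ASP+CGP arrays, 8.61, 8.81 and 8.83 on the ASP arrays, 9.84, 9.99 and 9.83 on the CGP arrays and 9.43, 9.55 and 9.53 on the CON arrays. It was lower in both aspartame pools, with log2 differences of -0.75 ± 0.07 (1.69-fold lower, adjusted p = 3.36e-07) in ASP against CON, -0.63 ± 0.07 in ASP+CGP against CON (adjusted p = 9.63e-06) and -1.01 ± 0.07 (2.01-fold lower, adjusted p = 3.73e-08) in ASP+CGP against CGP. Gadd45b, which binds and activates a kinase upstream of p38 and JNK, read 11.21, 11.20 and 11.20 on the ASP+CGP arrays, 11.13, 11.25 and 11.29 on the ASP arrays, 11.95, 12.09 and 12.12 on the CGP arrays and 11.80, 11.96 and 11.87 on the CON arrays. Its aspartame pools overlapped each other and neither overlapped CON. The log2 difference was -0.65 ± 0.07 (adjusted p = 1.09e-06), -0.67 ± 0.07 (1.6-fold lower, adjusted p = 4.12e-06) and -0.85 ± 0.07 (adjusted p = 1.85e-07) in those 3 comparisons.

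Gadd45g, a paralogue of Gadd45b, read 8.45, 8.78 and 8.61 on the ASP+CGP arrays, 8.71, 8.83 and 8.84 on the ASP arrays, 9.11, 9.25 and 9.27 on the CGP arrays and 8.93, 8.96 and 9.10 on the CON arrays. It was called in ASP+CGP against CGP alone (-0.60 ± 0.08, adjusted p = 2.96e-05). Btg2, an antiproliferative protein that speeds the shortening of mRNA tails, read 10.95, 10.95 and 10.88 on the ASP+CGP arrays, 10.67, 10.72 and 10.71 on the ASP arrays, 11.46, 11.48 and 11.51 on the CGP arrays and 11.16, 11.16 and 11.06 on the CON arrays. Its 4 pools did not overlap, yet only ASP+CGP against CGP was called (-0.56 ± 0.05, adjusted p = 1.55e-06), and the log2 differences of -0.43 in ASP against CON and 0.36 in CGP against CON were under 1.4-fold. Ier2 and Ier5, nuclear proteins of the same class, were not called. Ier2 had log2 differences of -0.37 in ASP against CON and -0.42 in ASP+CGP against CGP, and Ier5 of -0.12 and -0.34.

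The Dusp phosphatases switch off the MAP kinases that induce this set, and were not uniform. Dusp5, a nuclear phosphatase specific to ERK, read 8.84, 8.87 and 8.65 on the ASP+CGP arrays, 8.47, 8.55 and 8.55 on the ASP arrays, 9.74, 9.87 and 9.76 on the CGP arrays and 9.18, 9.24 and 9.24 on the CON arrays. The 4 pools stood apart without overlap, ASP lowest and CGP highest. Dusp5 was the only member called in CGP against CON, at 0.57 ± 0.07 (1.49-fold higher, adjusted p = 5.46e-05). It was called lower in ASP against CON (-0.69 ± 0.07 (1.62-fold lower, adjusted p = 5.66e-07)) and in ASP+CGP against CGP (-1.0 ± 0.07 (2-fold lower, adjusted p = 2.68e-08)), while -0.43 ± 0.07 in ASP+CGP against CON was under 1.4-fold. Dusp1, which acts on p38 and JNK as well as ERK, read 11.39, 11.55 and 11.22 on the ASP+CGP arrays, 11.18, 11.28 and 11.32 on the ASP arrays, 11.90, 12.03 and 11.99 on the CGP arrays and 11.81, 11.88 and 11.89 on the CON arrays. Both aspartame pools lay below CON, and the log2 difference was -0.60 ± 0.08 in ASP against CON (adjusted p = 1.04e-05) and -0.58 ± 0.08 in ASP+CGP against CGP (adjusted p = 1.99e-05).

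Dusp6, the cytoplasmic ERK phosphatase, read 10.73, 10.76 and 10.58 on the ASP+CGP arrays, 10.52, 10.51 and 10.50 on the ASP arrays, 10.86, 10.84 and 10.75 on the CGP arrays and 10.96, 11.05 and 11.06 on the CON arrays. It was highest in CON, and called in ASP against CON alone (-0.51 ± 0.06, adjusted p = 5.6e-06). Dusp2, a nuclear phosphatase best known from lymphocytes, read 7.44, 7.14 and 7.45 on the ASP+CGP arrays, 6.82, 6.84 and 6.89 on the ASP arrays, 6.91, 6.93 and 7.10 on the CGP arrays and 6.97, 7.04 and 6.99 on the CON arrays. All ASP+CGP arrays were above all others, and Dusp2 was the only member called higher in ASP+CGP against ASP (0.49 ± 0.08 (1.4-fold higher, adjusted p = 0.000109)), where 6.55% of all genes were called higher. That difference was 0.47 without the first ASP array, 0.44 without the first ASP+CGP array and 0.44 without the third, all under 1.4-fold. Dusp4, a nuclear relative of Dusp1, had log2 differences of -0.26 in ASP against CON and -0.20 in ASP+CGP against CGP. Zfp36 (tristetraprolin), which binds AU-rich elements and hastens decay of early response mRNAs, had -0.38 and -0.34. None of these 4 differences was called.

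Ptgs2 had the largest difference of the 40 in ASP against CON, and Gem in ASP+CGP against CGP. Ptgs2 encodes the inducible cyclooxygenase that makes prostaglandins. It read 8.33, 8.47 and 8.30 on the ASP+CGP arrays, 8.11, 8.37 and 8.18 on the ASP arrays, 9.69, 9.60 and 9.55 on the CGP arrays and 9.56, 9.56 and 9.62 on the CON arrays. The aspartame pools overlapped each other, CGP overlapped CON, and the pairs were more than 1 log2 unit apart. Its log2 difference was -1.36 ± 0.07 (2.57-fold lower, adjusted p = 5.97e-10) in ASP against CON, -1.22 ± 0.07 (2.33-fold lower, adjusted p = 2.02e-08) in ASP+CGP against CON and -1.25 ± 0.07 (2.38-fold lower, adjusted p = 5.32e-09) in ASP+CGP against CGP. In CGP against CON it was 0.03 ± 0.07 (adjusted p = 0.966). Gem, a small GTPase that restrains voltage-gated calcium channels, read 9.64, 9.70 and 9.57 on the ASP+CGP arrays, 9.74, 9.94 and 9.84 on the ASP arrays, 11.02, 11.09 and 11.02 on the CGP arrays and 10.66, 10.75 and 10.70 on the CON arrays. Its 4 pools did not overlap, with ASP+CGP lowest and CGP highest. The log2 difference was -0.86 ± 0.06 (1.82-fold lower, adjusted p = 2.52e-08) in ASP against CON, -1.07 ± 0.06 (2.09-fold lower, adjusted p = 1.91e-08) in ASP+CGP against CON and -1.41 ± 0.06 (2.65-fold lower, adjusted p = 2.6e-10) in ASP+CGP against CGP.

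Arc, which neurons induce with synaptic activity and which acts at the postsynaptic membrane, read 7.98, 7.80 and 7.93 on the ASP+CGP arrays, 8.12, 8.25 and 8.34 on the ASP arrays, 8.22, 8.07 and 8.16 on the CGP arrays and 7.80, 7.87 and 7.94 on the CON arrays. Like Npas4 it had its highest mean in ASP, where it stood above CON by 0.36 ± 0.07, under 1.4-fold in the deposited scaling. Its ASP and CGP arrays overlapped. ASP+CGP overlapped CON. Rgs2, which ends signalling by Gq-coupled receptors, had log2 differences of -0.36 in ASP against CON and -0.47 in ASP+CGP against CGP, neither of them called.

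CGP against CON gave 33 positive and 7 negative differences among the 40, where 7952 were positive and 7948 negative among all 15900 genes. Besides Dusp5, 9 members had an adjusted p under 0.05 with a difference under 1.4-fold, all of them positive: Fos (0.29), Fosb (0.41), Junb (0.29), Atf3 (0.45), Ier3 (0.45), Ier5 (0.29), Btg2 (0.36), Csrnp1 (0.38) and Gem (0.34). With no fold minimum, 2.81% of all genes were called higher and 0.208% lower. Liver markers were higher in the same pool, 12 of 17 called with a median of 0.68, and their part in the members' difference was not tested.

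The difference between the aspartame and non-aspartame pools can be taken from arrays that are not shared, as ASP against CON and as ASP+CGP against CGP. Across the 40 members the 2 log2 differences correlated at r = 0.789 (Spearman's rho = 0.807), and across all 15900 genes at 0.319 and 0.424. These describe genes, which are not independent replicates. All genes include the neuron markers, with medians of 2.39 in ASP against CON and 0.08 in ASP+CGP against CGP. They also include the liver markers, with -1.06 and -2.24. The part of such genes in the all-gene correlation and in the all-gene shares that follow was not tested. Of members called lower, 17 were called in both, which is 85% of the 20 in ASP against CON and 77.3% of the 22 in ASP+CGP against CGP. For all genes the shares were 37.5% and 27.8%. The 3 called in ASP against CON alone were Jun, Maff and Dusp6. The 5 called in ASP+CGP against CGP alone were Fos, Egr2, Klf6, Btg2 and Gadd45g. This split depended on the scaling and the fold minimum. Jun, Maff and Dusp6 lost their call with cyclic loess and with removal of the level trend. All of the 5 lost theirs with median centring, cyclic loess and removal of the level trend.

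**Figure D3:**
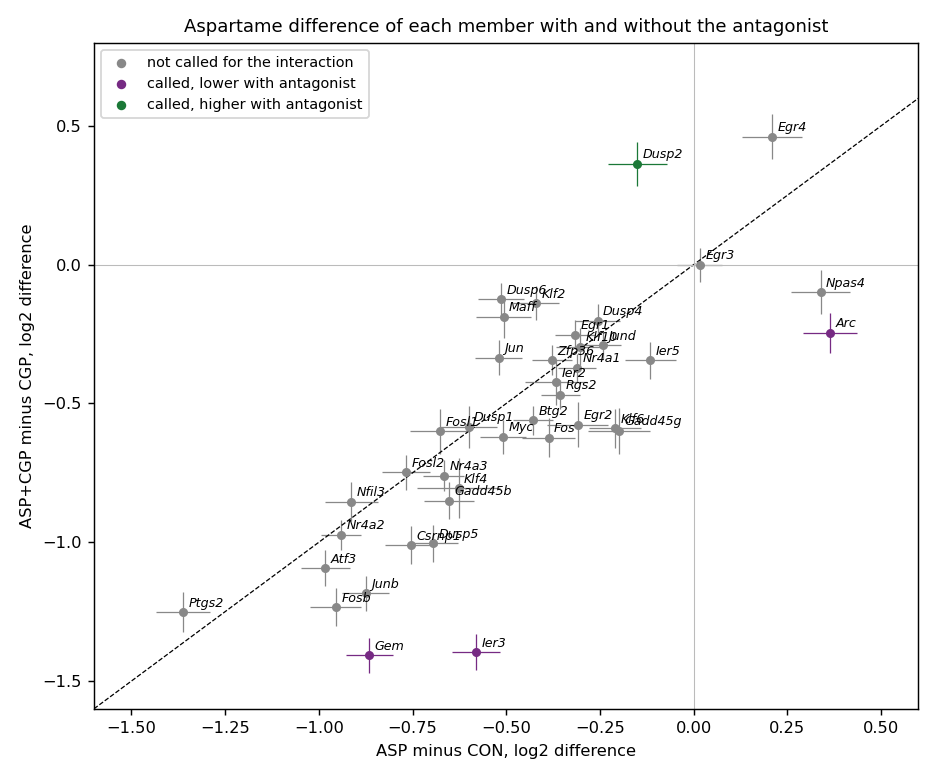
Log2 difference of each member in ASP minus CON (x axis) and in ASP+CGP minus CGP (y axis), with standard errors of the limma fit as bars and the line of equal differences dashed. Most members lie in the lower left near the line (r = 0.789), and the 4 coloured members, Ier3, Gem, Arc and Dusp2, were called for the interaction.

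The interaction is the aspartame difference with the antagonist minus that without it. It was called for 4 members, 3 lower and 1 higher, where 15.5% and 9.02% of all genes were called. Ier3 was lower by more in ASP+CGP against CGP than in ASP against CON. Its interaction was -0.82 ± 0.09 (1.76-fold lower, adjusted p = 4.85e-06) on the log2 scale. Gem had -0.54 ± 0.09 (adjusted p = 0.000194) as deposited. It fell under 1.4-fold with median centring (-0.37), cyclic loess (-0.40) and removal of the level trend (-0.40). Arc had -0.61 ± 0.10 (adjusted p = 0.000236), being -0.24 ± 0.07 in ASP+CGP against CGP and 0.36 ± 0.07 in ASP against CON. With median centring the interaction of Arc was -0.43, under 1.4-fold. Dusp2 had 0.51 ± 0.11 (adjusted p = 0.0018), with 0.36 ± 0.08 in ASP+CGP against CGP and -0.15 ± 0.08 in ASP against CON. The interaction of Dusp2 was 0.48 without the first CGP array, 0.47 without the first ASP+CGP array and 0.46 without the third. All are under the log2 of 1.4, which is 0.49. With cyclic loess it was 0.37 and with removal of the level trend 0.36, also under 1.4-fold. For the remaining 36 members the interaction was not called, which does not show that the aspartame differences were equal. The direct comparison of ASP+CGP with ASP called only Dusp2 and Npas4, and the members' median there was 0.13 against -0.02 for all genes.

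Related genes from lists outside the 40 gave a mixed picture. The lists were chosen with earlier results of these data known, so their counts are not an independent check. The study had already listed Sik1 and Plk3, and the members Junb, Ptgs2 and Gem, as lower in both aspartame groups of these arrays. Of 37 other rapidly induced genes, 12 were called lower and 1 higher in ASP against CON, 16 lower and 0 higher in ASP+CGP against CON, and 17 lower and 0 higher in ASP+CGP against CGP. Of all genes, 8.13%, 8.32% and 11.0% were called lower in these comparisons. The list's median log2 differences were -0.38, -0.40 and -0.43. Sik1, a kinase that cAMP induces and that restrains CREB coactivators, was at -0.98 ± 0.06, -0.94 ± 0.06 and -1.15 ± 0.06 in these comparisons, and Plk3, a stress-responsive kinase, at -0.90 ± 0.06, -1.05 ± 0.06 and -1.40 ± 0.06. Adamts1, a secreted protease, was at -0.82 ± 0.08, -0.72 ± 0.08 and -0.93 ± 0.08. The exception was Pde4b, a phosphodiesterase that breaks down cAMP and is abundant in brain, which was higher in ASP against CON (1.96 ± 0.06). In CGP against CON 1 of the 37 was called, Ccn1, a matrix protein and SRF target, which was higher (0.49 ± 0.06).

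Of 25 upstream genes for MAP kinases, SRF, CREB and their cofactors, 3 were called lower and 1 higher in ASP against CON (median -0.19), where 8.13% and 9.81% of all genes were called. The comparison of ASP+CGP with CGP had 3 lower and 0 higher (median -0.30), where 11.0% and 8.57% of all genes were called. Crem, whose inducible product ICER represses cAMP targets, was at -0.85 ± 0.07 in ASP against CON and -0.84 ± 0.07 in ASP+CGP against CGP, and the ERK-activated kinase Rps6ka3 at -0.69 ± 0.10 and -0.55 ± 0.10. Srf was called in ASP+CGP against CGP alone (-0.51 ± 0.06). The 1 gene that was higher in ASP was Prkacb, a catalytic subunit of protein kinase A (0.65 ± 0.05). Of 18 feedback inhibitors outside the 40, 5 were lower and 1 higher in ASP against CON and 6 lower and 0 higher in ASP+CGP against CGP. Among them Spry1, an inhibitor of receptor tyrosine kinase signalling, was at -0.61 ± 0.07 in ASP against CON, and its relative Spry2 at -0.75 ± 0.06 in ASP+CGP against CGP.

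Genes that neurons induce with activity went the other way in ASP. Of 14, 7 were called higher and 1 lower in ASP against CON (9.81% and 8.13% of all genes), with a median of 0.57. In ASP+CGP against CON 1 was called higher and 3 lower (6.09% and 8.32% of all genes), with a median of -0.13. Sst, the somatostatin precursor, was at 4.45 ± 0.09 and Rasgrp1, an activator of Ras, at 3.79 ± 0.08 in ASP against CON. Neuron markers rose with them in that pool, with all 14 called and a median of 2.39, as did 9 of 9 oligodendrocyte and 8 of 8 astrocyte markers. Npas4 and Arc, which are induced chiefly in neurons, had their highest mean in the same pool. The ASP arrays of Arc overlapped those of CGP, where neuron markers had a median of 0.02 against CON. The part of neuron RNA in those values was not tested.

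**Figure D4:**
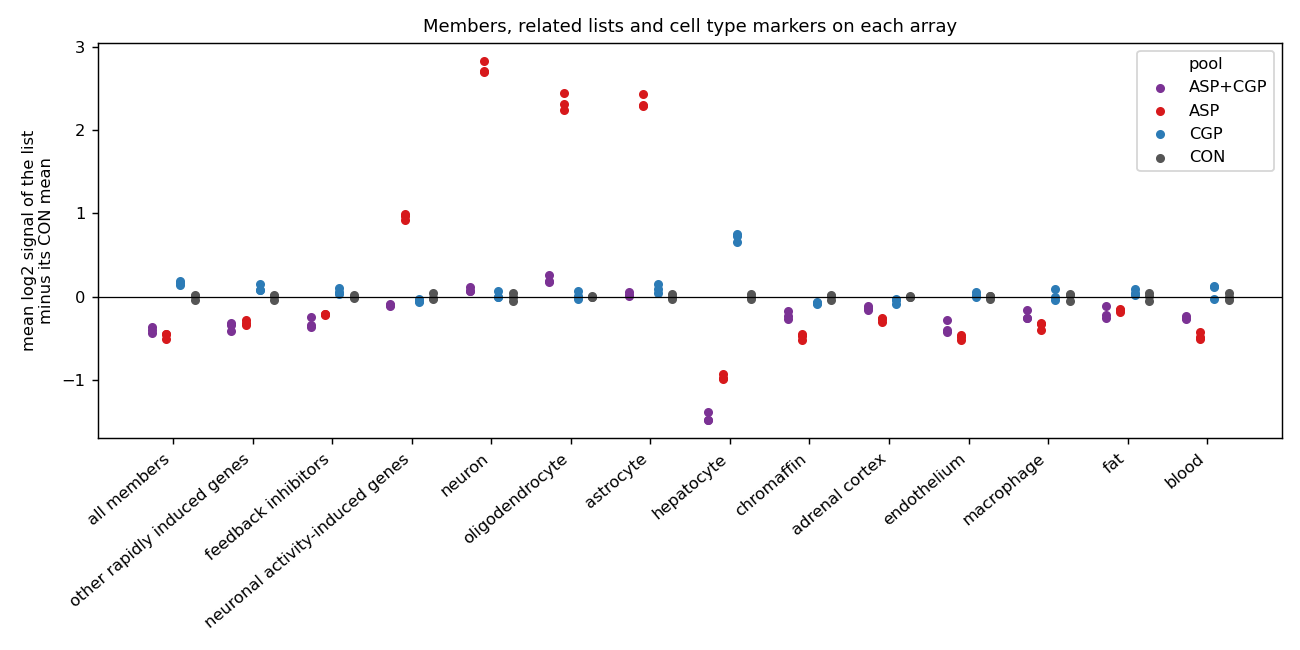
Mean log2 signal of each gene list on each array, as the difference from the list's mean over the CON arrays (y axis), for the 40 members, 3 related lists and 10 lists of cell type markers (x axis), with 1 point per array. The member mean is below CON on all ASP+CGP and ASP arrays, the neuron, oligodendrocyte and astrocyte lists lie more than 2 above CON on the ASP arrays and by at most 0.26 above it on the ASP+CGP arrays, and the liver list is lowest in ASP+CGP and highest in CGP.

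Other markers moved with the members in some comparisons and not in others. In ASP+CGP, where neuron markers had a median of 0.04 against CON with 2 of 14 called higher, the members' median was -0.38. Liver markers had medians of -1.06 in ASP against CON (13 of 17 lower), -1.49 in ASP+CGP against CON (16 lower) and 0.68 in CGP against CON (12 higher), so that CGP lay above CON and both aspartame pools below it, as for most members. Endothelial markers were lower too, with medians of -0.50 in ASP against CON (5 of 8 called) and -0.36 in ASP+CGP against CON (2 of 8). Chromaffin markers had medians of -0.45 (4 of 10 called lower) and -0.22 (1 of 10), and cortex markers -0.23 (3 of 9) and -0.09 (0 of 9). Macrophage, fat and blood markers had medians of -0.33 (3 of 8), -0.15 (1 of 7) and -0.42 (2 of 4) in ASP against CON and -0.24 (0 of 8), -0.17 (1 of 7) and -0.21 (1 of 4) in ASP+CGP against CON. Genes induced by ACTH and cAMP in the cortex were called lower in 6 of 14 cases in ASP against CON and 3 of 14 in ASP+CGP against CON, and genes induced by glucocorticoid in 2 of 15 and 3 of 15. Of all genes, 8.13% and 8.32% were called lower in these comparisons. The lists overlap. The ACTH list holds all cortex markers but Cyp11b2, and also Sik1 and Crem. The glucocorticoid list shares Per1, Sgk1, Klf9, Errfi1, Nfkbia and Cebpd with the other rapidly induced genes. In ASP+CGP against ASP the liver markers had a median of -0.44, while that of the members was 0.13. In CGP against CON, where the members' median was 0.16, endothelial markers had 0.01, chromaffin markers -0.09 and cortex markers -0.03. The part of these marker differences in the members' differences was not tested.

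The signal distribution of the arrays bore on how many members were called. Cyclic loess, which removes trends with signal level between arrays, moved the median of all genes in ASP against CON to 0.01 from -0.10 and the members' median to -0.30 from -0.47. With it 13 members were called lower in ASP against CON (2.99% of all genes), 6 in ASP+CGP against CON (2.93%) and 12 in ASP+CGP against CGP (4.60%). The 6 are 5 of the 13 called on the deposited scale and Npas4, which was not called there, at -0.50. Of the 40 differences, 35 were negative in ASP against CON, 26 in ASP+CGP against CON and 32 in ASP+CGP against CGP, against 36, 36 and 38 as deposited. The members' median was -0.12 in ASP+CGP against CON and -0.28 in ASP+CGP against CGP, against -0.38 and -0.58 as deposited. The members called lower under the deposited values, median centring, cyclic loess and removal of the level trend alike were Fosb, Fosl1, Fosl2, Junb, Atf3, Nfil3, Nr4a2, Nr4a3, Csrnp1, Gadd45b, Dusp5, Ptgs2 and Gem in ASP against CON. For ASP+CGP against CON they were Junb, Nr4a2, Ier3, Ptgs2 and Gem. For ASP+CGP against CGP they were 12: Fosb, Fosl2, Junb, Atf3, Nfil3, Nr4a2, Ier3, Csrnp1, Gadd45b, Dusp5, Ptgs2 and Gem. The share of all genes called lower under all 4 scalings was not counted. It can be no larger than the share under any 1 of them. That was 2.99% in ASP against CON with cyclic loess. With median centring it was 2.15% in ASP+CGP against CON and 3.25% in ASP+CGP against CGP. Of the interactions, Ier3 alone was called under all 4 scalings, and Dusp5 kept its call in CGP against CON. The Egr median in ASP against CON turned to 0.01 from -0.15 with cyclic loess, and the median of the Dusp genes and Zfp36 in ASP+CGP against CGP to 0.00 from -0.27.

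**Figure D5:**
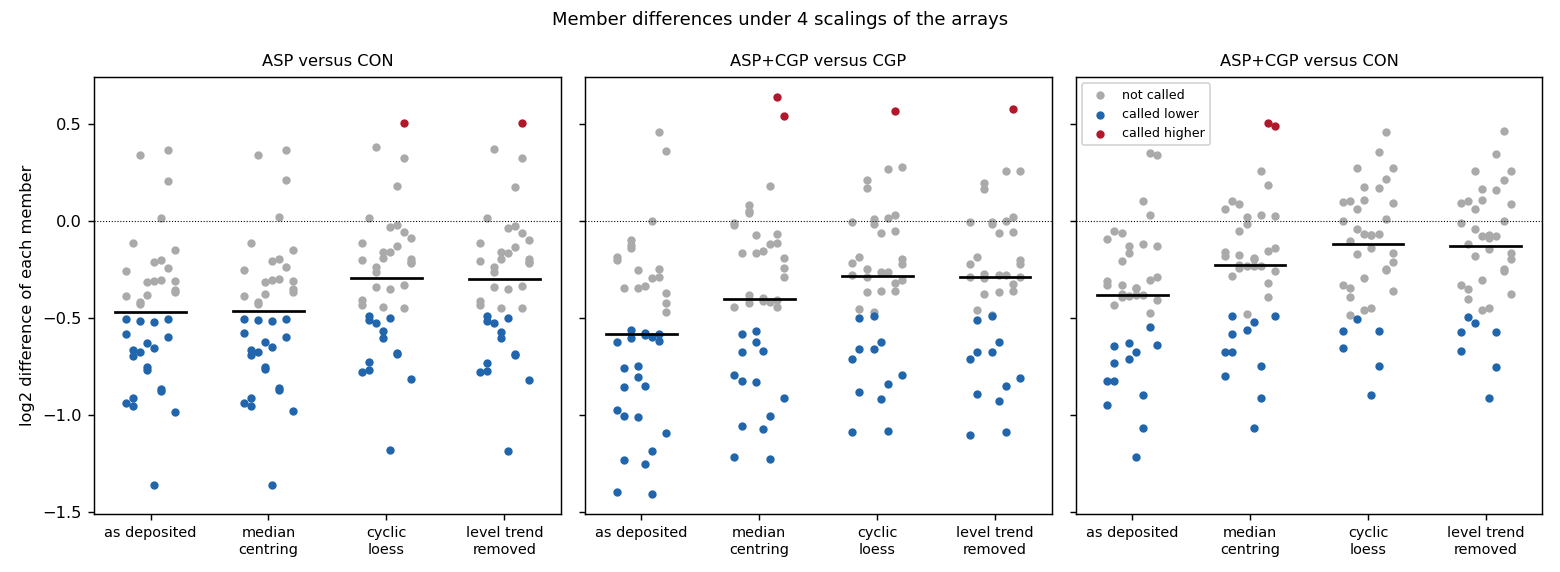
Log2 difference of each of the 40 members (y axis) under 4 scalings of the arrays (x axis) in 3 comparisons, with called members coloured and the members' median as a bar. The median moves toward 0 with cyclic loess and with removal of the level trend and stays below 0 in all 3 comparisons.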

How the data were processed

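Adrenal RNA was hybridised as 4 pools (ASP+CGP, ASP, CGP and CON) on 3 arrays each. The authors deposited 1 log2 value per probe set and array, computed by RMA in Partek (background correction, then quantile normalisation, then median polish), and removed values under 6; all 26533 probe sets reached 6 on at least 1 array. Of these, 17710 have 1 gene symbol in the platform annotation, 1077 have several and 7746 have none. Each gene was taken at its single-symbol probe set with the highest mean, and a gene was tested if its mean reached 6 in at least 1 group. A group-mean model over all 12 arrays was fitted with limma 3.58.1 in R 4.3.3, with empirical Bayes moderation and Benjamini-Hochberg adjustment over 15900 genes per contrast. Errors are standard errors of that fit (n = 3 arrays per pool). A call needed an adjusted p under 0.05 and a fold of at least 1.4, the thresholds of the study's methods. For its adrenal networks and gene tables the study used 1.8-fold. Quantile normalisation forces like signal distributions on the probes, so differences are relative to the other genes. Signals of different probe sets were not compared.

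The members and lists were chosen with earlier results of these data known. Genes called in at least 1 contrast are described by array, with full statistics for the 10 largest of each contrast, and up to 4 genes are named from each related list. Promoter motifs were searched on both strands with Python 3.11.15. Other filters, scalings, moderations, fold minimums, probe set rules, array weights, a replicate block and each array left out were tried. The scripts were tested on simulated data. The number of arrays limits the precision.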

Additional observations from a re-analysis of the deposited data

Results flagged for a closer look

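Of the 40 members, 4 differed between antagonist-exposed and other pools in their aspartame difference, by the interaction term of the limma fit. Of the 4, 3 were lower and 1 higher, where 15.5% of all genes were called lower and 9.02% higher. The members' share was therefore not above that of all genes. The interaction of Ier3 was -0.82 (adjusted p = 4.85e-06), with -1.40 in ASP+CGP against CGP and -0.58 in ASP against CON. For Gem it was -0.54 (adjusted p = 0.000194), with -1.41 and -0.86 in the same comparisons. For Arc it was -0.61 (adjusted p = 0.000236), with -0.24 and 0.36. For Dusp2 it was 0.51 (adjusted p = 0.0018), with 0.36 and -0.15. Ier3 kept its call under all 4 scalings. Arc lost it with median centring (-0.43), and Gem lost it with median centring (-0.37), cyclic loess (-0.40) and removal of the level trend (-0.40). Dusp2 lost it with cyclic loess (0.37) and removal of the level trend (0.36). Neuron markers were all 14 called lower for the interaction, with a median of -2.42, and liver markers 17 of 17, with a median of -1.16. Both lists went the same way as Ier3, Gem and Arc and the other way from Dusp2, and their part was not tested.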

How the results depend on the processing

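No member named as called changed sign under any alternative. Counts of called members moved by over 1.5 times as follows. In ASP against CON, 13 were lower and 1 higher with cyclic loess or removal of the level trend, 33 lower and 3 higher with no fold minimum, and 7 lower at 1.8-fold. Of all genes, 2.99% or 3.03% were lower and 12.1% or 12% higher under those scalings, 37.7% lower and 17.6% higher with no fold minimum, and 0.874% lower at 1.8-fold. In ASP+CGP against CON, 6 were lower with cyclic loess and 7 with removal of the level trend, 2 were higher with median centring (Egr4 and Dusp2), 31 were lower and 2 higher with no fold minimum, and 4 lower at 1.8-fold. Of all genes, 2.93% and 2.97% were lower under the first pair of scalings, 14.5% higher with median centring, 50.4% lower and 22.3% higher with no fold minimum, and 0.906% lower at 1.8-fold. In ASP+CGP against CGP, 14 were lower and 2 higher with median centring, 12 lower and 1 higher with cyclic loess or removal of the level trend, 1 higher with array weights, 34 lower and 2 higher with no fold minimum, and 11 lower at 1.8-fold. Of all genes, 3.25% were lower and 17.7% higher with median centring, 4.6% or 4.78% lower and 5.69% or 5.59% higher with loess or trend removal, 9.78% higher with array weights, 51.8% lower and 23.8% higher with no fold minimum, and 1.98% lower at 1.8-fold. In CGP against CON, 10 were higher with no fold minimum (2.81% of all genes) and 0 at 1.8-fold (0.572%). In ASP+CGP against ASP, 3 were higher with median centring (16% of all genes), 15 higher and 5 lower with no fold minimum (30% and 33.1%), and 0 and 0 at 1.8-fold (0.302% and 6.54%). For the interaction, 3 were higher and 1 lower with median centring (19.8% and 10.6% of all genes), 4 higher and 10 lower with no fold minimum (21.9% and 29.5%), and 0 and 0 at 1.8-fold (0.799% and 7.52%). Of all genes called in ASP against CON, 54.7% were higher, and 80.1% with cyclic loess; in ASP+CGP against CON 42.3%, and 87.1% with median centring; in ASP+CGP against CGP 43.9%, and 84.5% with median centring; in ASP+CGP against ASP 32.9%, and 62.7% with median centring; for the interaction 36.7%, and 65.3% with median centring. The cause of these shifts was not tested. With single arrays left out, members called higher in CGP against CON ranged from 1 to 2 (1.47% to 1.7% of all genes). The count was 2 without CON array 2, CON array 3 or CGP array 3. In ASP+CGP against ASP the range was 0 to 1 (4.84% to 8.58% of all genes). It was 0 without ASP array 1, ASP+CGP array 1 or ASP+CGP array 3. In ASP+CGP against CGP it was 0 to 1 (7.06% to 11% of all genes), with 1 without CGP array 3 or ASP+CGP array 2. For the interaction it was 0 to 1 (7.52% to 10.9% of all genes). There it was 0 without CGP array 1, ASP+CGP array 1 or ASP+CGP array 3. Of the replicate numbers, 8 of 18 same-numbered pairs of arrays deviated together at r over 0.1 (range -0.15 to 0.38). Of pairs with different numbers, 9 of 36 did (range -0.39 to 0.28). Whether the numbers pair the arrays cannot be told from these values. With the replicate block 20 members were called lower in ASP against CON, 13 in ASP+CGP against CON and 22 in ASP+CGP against CGP. Of all genes, 8.13%, 8.32% and 11% were called lower with it, and no call among the members changed. With 1 pool per group, no variation between mice can be seen, and dissection cannot be told apart from treatment.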
